A study of Schizosaccharomyces pombe with 6 samples.

Results

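The rRNA genes of *S. pombe* were examined for peaks of Hap2-GFP and Arp5-3HA. All 47 genes of biotype rRNA on chromosomes I to III of the ASM294v3 annotation were taken, out of 12606 genes of all kinds on these chromosomes. They comprise 36 dispersed 5S genes and 11 genes of the rDNA repeats at the ends of chromosome III, namely 5 genes for 18S, 3 for 5.8S and 3 for 28S rRNA. ChIP-seq was performed in a single strain that carries both tagged proteins, Hap2-GFP and Arp5-3HA, grown in rich medium (1X YES). The anti-GFP antibody was used to recover Hap2-GFP and the anti-HA antibody to recover Arp5-3HA. Each was done in 2 replicates, and the deposited data are 1 peak list per replicate. The labels do not say whether replicates came from separate cultures. A strain without either tag is not among the samples, and the 2 input samples were not analysed here. Both proteins belong to Ino80, a complex that slides nucleosomes and exchanges histones, Arp5 as a core subunit and Hap2 as an auxiliary one.

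rRNAs form the core of the ribosome. In the rDNA repeats, RNA polymerase I transcribes the 18S, 5.8S and 28S RNAs as one precursor, which is cut into the mature RNAs, and a spacer separates each unit from the next. The 5S genes of fission yeast lie outside these repeats, scattered singly over the chromosomes, and RNA polymerase III transcribes them from a promoter within the gene, which the factor TFIIIA recognizes. In fission yeast, genes of RNA polymerase III generally also have a TATA element upstream of the start. Actively transcribed rDNA is known in yeasts for its very dense polymerases and few regular nucleosomes.

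The 5S genes are copies of one sequence, and how far each copy follows it is shown here because the copies that depart from it are also the ones without a peak in 3 of the 4 lists. SPRRNA.10 (chrI:149658-149776, + strand) is annotated as the 119 bases of the 5S sequence itself, and 23 of the 36 genes, SPRRNA.10 among them, hold exactly these bases. A further 11 genes match it at no fewer than 116 bases. SPRRNA.12 (chrI:912230-912348, - strand) is shown as one that has 116. The remaining genes, SPRRNA.41 (chrII:3171572-3171680, - strand) and SPRRNA.54 (chrII:3096968-3097085, - strand), share 99 and 92 bases with SPRRNA.10 in an alignment with 10 and 5 gap bases. Capitals mark bases that differ from SPRRNA.10 in the alignment, and gaps are not marked.
SPRRNA.10: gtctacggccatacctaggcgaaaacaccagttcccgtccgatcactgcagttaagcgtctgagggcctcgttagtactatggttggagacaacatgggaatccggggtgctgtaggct
SPRRNA.12: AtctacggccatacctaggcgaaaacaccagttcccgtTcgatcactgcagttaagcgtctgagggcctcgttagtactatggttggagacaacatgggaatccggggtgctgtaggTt
SPRRNA.41: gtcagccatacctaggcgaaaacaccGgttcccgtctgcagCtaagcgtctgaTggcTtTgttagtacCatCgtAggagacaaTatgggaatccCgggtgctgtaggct
SPRRNA.54: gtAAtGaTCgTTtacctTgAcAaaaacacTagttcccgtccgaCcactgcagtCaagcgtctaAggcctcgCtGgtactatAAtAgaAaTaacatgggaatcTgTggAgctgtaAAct
The 36 genes thus fall into 12 distinct sequences. The line between near-complete and diverged copies was set at 110 matching bases after the values were seen, and no gene lies between 99 and 116. A read lying wholly within the shared 119 bases matches at least 23 places in the genome. How the authors treated such reads is not given in the sources used here, so peaks at the near-complete copies may not be independent of each other within a list.

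The 45 bases before the 5S sequence differ from gene to gene and are rich in A and T, with a GC content between 11.1 and 28.9% at the 34 near-complete copies against 52.1 to 55.5% within their 5S sequence. They are shown because the summits described below lie close to this boundary. The stretch before SPRRNA.10 (chrI:149613-149657, + strand) and that before SPRRNA.41 (chrII:3171681-3171725, - strand) hold TATA in bases -35 to -20 from the 5S start, in capitals. The stretches before SPRRNA.13 (chrI:2976774-2976818, + strand) and SPRRNA.54 (chrII:3097086-3097130, - strand) do not, though that before SPRRNA.54 holds TATA at places not wholly within these bases.
SPRRNA.10 upstream: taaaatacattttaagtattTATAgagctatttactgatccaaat
SPRRNA.13 upstream: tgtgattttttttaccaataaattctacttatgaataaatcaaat
SPRRNA.41 upstream: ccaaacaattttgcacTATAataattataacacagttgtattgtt
SPRRNA.54 upstream: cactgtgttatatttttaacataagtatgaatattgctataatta
The letters TATA, which read the same on both strands, occurred in this 16-base window at 25 of 34 near-complete 5S copies and at 1 of the 2 diverged copies, against 105 of 171 tRNA genes (61.4%) and 1781 of all 12606 genes (14.1%), measured from the annotated start in the last 2 groups. Motif and window were chosen after the sequences were seen. SPRRNA.13, which lacks the letters, had the highest Hap2 peaks of all 5S genes when ranked by the lower of both lists.

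A peak was counted at a gene where it met the gene body by at least 1 bp. Of the 36 5S genes, 34 and 36 had a peak in Hap2-GFP replicates 1 and 2, and 26 and 32 had one in Arp5-3HA replicates 1 and 2. The shares of all genes with a peak in these lists were 34.1, 37.8, 35.6 and 36.6%. Both Hap2 lists had a peak at 34 5S genes (94.4%, against 26.7% of all genes), both Arp5 lists at 24 (66.7%, against 26.8%), and all 4 lists at 24 (66.7%, against 17.1%). The tRNA genes, the other large group transcribed by RNA polymerase III, were alike in this order, with 163 of 171 in both Hap2 lists and 127 in both Arp5 lists. The 5S share thus lay far above that of all genes for both proteins and was higher for Hap2 than for Arp5, and the 4 lists were too few for a test across lists, since an exact permutation of 2 lists against 2 gives no p below 0.333.

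**Figure D1:**
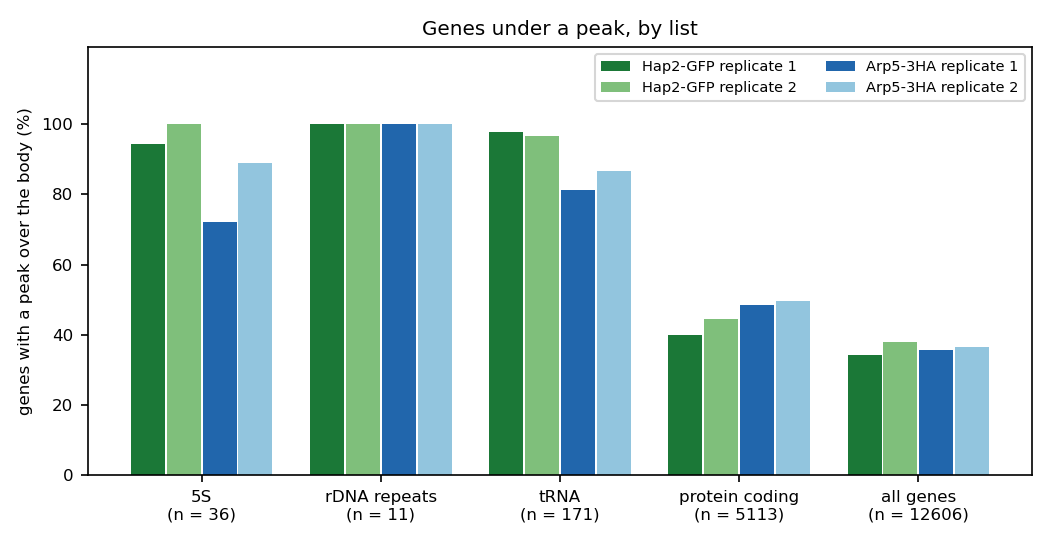
Bars give the percentage of genes with a peak over the gene body in each of the 4 lists, for 5S genes, rDNA genes, tRNA genes, protein-coding genes and all genes; n is the number of genes in a group. The rDNA bars all stand at 100%, the 5S bars at 94.4 and 100% for Hap2 and 72.2 and 88.9% for Arp5, and all genes between 34.1 and 37.8%.

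The 5S genes are short, with annotated lengths from 80 to 440 bp and a median of 150 bp. When peaks had to cover at least 50% of the gene, 34 5S genes still counted in both Hap2 lists and 23 in both Arp5 lists, against 7.75 and 6.47% of all genes. All 3 chromosomes had genes that lacked a peak in some list: 8 of 12 5S genes on chromosome I, 9 of 16 on chromosome II and 7 of 8 on chromosome III had a peak in all 4 lists. No 5S gene overlapped a coding gene, and 35 of 36 lay within 1 kb of one. The closest pair of 5S genes was 11048 bp apart, and no peak covered more than 1 5S gene.

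The diverged copies SPRRNA.41 and SPRRNA.54 each had a peak in Hap2-GFP replicate 2 and in no other list. SPRRNA.54 ranked 4186 of the 4259 peaks of that list by score, with a peak of 150 bp that covered 56.8% of the annotated gene. SPRRNA.41 ranked 1554, with a peak of 260 bp. Every near-complete copy had a peak in both Hap2 lists. The nearest peaks to SPRRNA.41 in Hap2-GFP replicate 1, Arp5-3HA replicate 1 and Arp5-3HA replicate 2 were 486, 546 and 536 bp away, and those to SPRRNA.54 were 1478, 738 and 1488 bp away. Sequence divergence and the absence of reproducible peaks coincided at both genes, and with 2 such genes their relation was not tested.

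**Figure D2:**
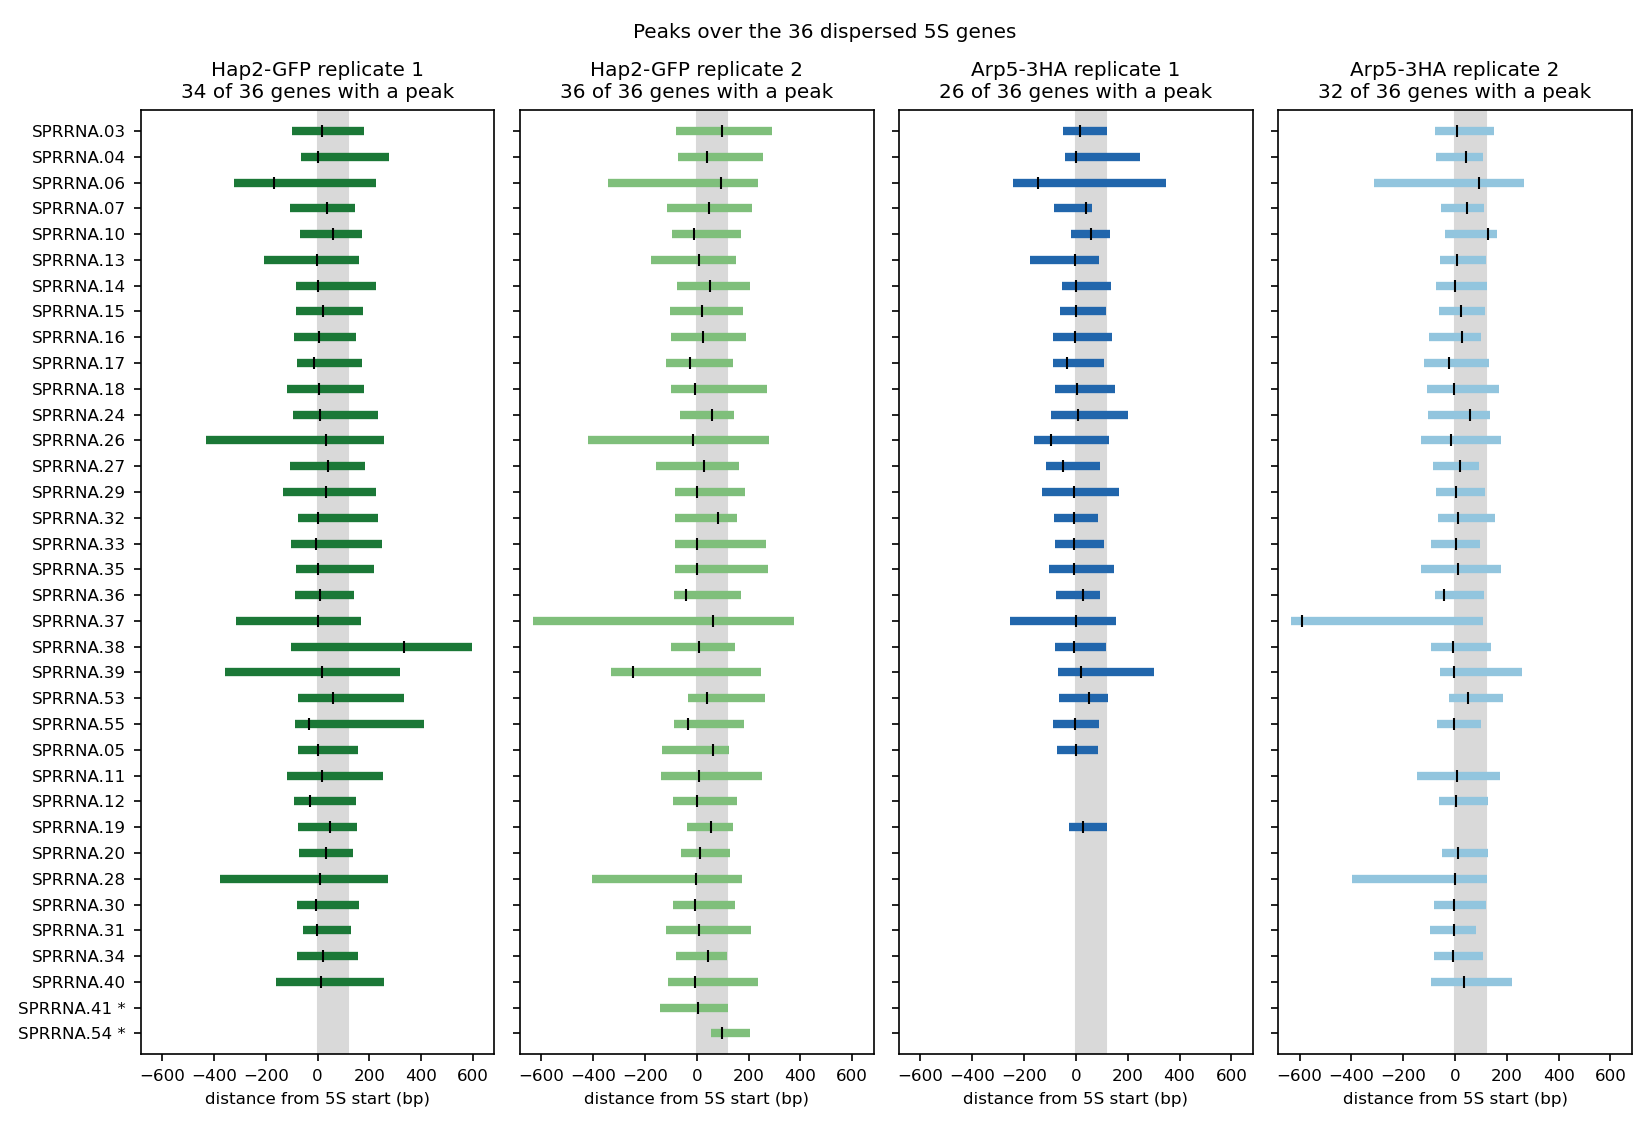
Each row is a 5S gene and each panel a list; bars span the peak over the gene, black ticks mark its summit, and the x axis gives the distance in bp from the start of the 5S sequence, with the 119 bases of the gene in grey and transcription to the right. Asterisks mark the diverged copies SPRRNA.41 and SPRRNA.54, which have a bar only in Hap2-GFP replicate 2; the Arp5-3HA replicate 1 panel lacks a bar for 10 genes.

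Of the 34 near-complete copies, 10 lacked a peak in 1 Arp5 list and none lacked one in both. Arp5-3HA replicate 1 had none at SPRRNA.11, SPRRNA.12, SPRRNA.20, SPRRNA.28, SPRRNA.30, SPRRNA.31, SPRRNA.34 and SPRRNA.40. In Arp5-3HA replicate 2 these 8 genes had ranks of 144, 214, 214, 169, 124, 341, 991 and 445 in the same order. SPRRNA.34 and SPRRNA.40 thus ranked below the median of the 5S genes in that list, 369, and the other 6 above it. The median rank of the 8 genes there, 214, was above that of the 24 genes found in both Arp5 lists, 422. SPRRNA.30, which had no peak in Arp5-3HA replicate 1, ranked 48 and 313 in the Hap2 lists and 124 in Arp5-3HA replicate 2, the highest Arp5 place of any 5S gene when the poorer of the available ranks was used. The nearest Arp5-3HA replicate 1 peak lay between 117 and 3982 bp from the 8 genes, with a median of 1499.5 bp. Arp5-3HA replicate 2 lacked a peak at SPRRNA.05 and SPRRNA.19, which ranked 146 and 384 in Arp5-3HA replicate 1. Of the 23 copies identical to SPRRNA.10, 18 had a peak in both Arp5 lists, and of the 11 near-complete copies that differ from it, 6 had.

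Scores have no stated scale and were used only as ranks within a list, where equal scores share the rank. A percentile of 100 is the top of a list. The median percentiles of the peaks over 5S genes were 91.4 and 92.2 in the Hap2 lists and 86.9 and 91.1 in the Arp5 lists, so that 5S genes ranked high in each list. These medians were near those of peaks over tRNA genes, at 91.2 and 89.6 in the Hap2 lists and 86.3 and 87.0 in the Arp5 lists. Among the 1000 highest peaks of a list were 34 and 32 5S genes for Hap2 and 21 and 28 for Arp5. Few reached the top 100, with 2 and 1 for Hap2 and 1 and 2 for Arp5.

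By the lower percentile of its lists, SPRRNA.13 was highest for Hap2, with ranks 118 and 132 in the Hap2 lists and 137 and 188 in the Arp5 lists. It kept a similar place in all 4 lists. SPRRNA.26 and SPRRNA.40 followed, at ranks 165 and 123 and at ranks 204 and 173 in the Hap2 lists. The lowest Hap2 ranks after the diverged copies belonged to SPRRNA.34, at 511 and 1133. For Arp5, SPRRNA.30, SPRRNA.33 and SPRRNA.11 were highest by this rule, which passes over a list without a peak. SPRRNA.33 stood at 130 and 78, and SPRRNA.30 and SPRRNA.11 at 124 and 144, each in its only Arp5 list. SPRRNA.10, whose exact sequence 23 genes hold, had Hap2 ranks of 293 and 407 and was the lowest for Arp5, with ranks 925 and 2098. SPRRNA.37 followed at 1156 and 1715, and SPRRNA.53 at 498 and 1560. The order of the near-complete copies by rank was not shared by the Hap2 replicates and was shared only in part by the Arp5 replicates. The rank correlation over genes with a peak in both lists (Spearman's rho, given as a description) was 0.07 between the Hap2 lists (34 genes) and 0.43 between the Arp5 lists (24 genes), and these copies share sequence.

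**Figure D3:**
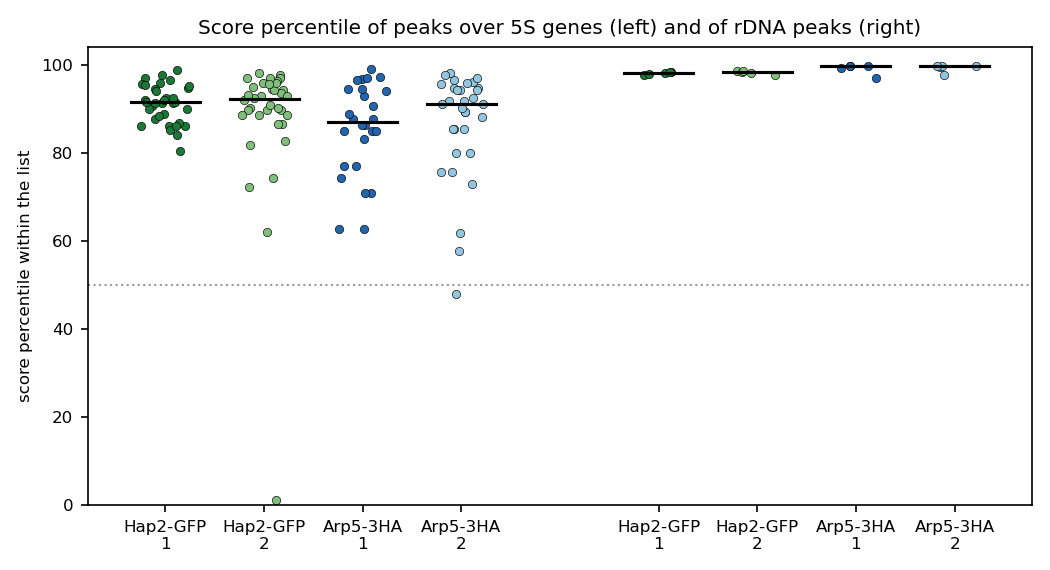
Points give the score percentile, within its list, of the peak over each 5S gene (left 4 columns) and of each of the 5 rDNA peaks (right 4 columns); bars are medians, numbers under the protein are replicates, and the dotted line is the middle of a list. The 5S medians lie between 86.9 and 92.2, with SPRRNA.54 alone at 1.06, and every rDNA peak lies at 96.9 or above.

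The peaks over 5S genes were wider in the Hap2 than in the Arp5 lists. Median widths were 305 and 285 bp for Hap2 and 200 and 200 bp for Arp5, whereas the medians over all peaks were 240 and 240 bp for Hap2 and 230 and 230 bp for Arp5. Peaks over tRNA genes had median widths of 290 and 310 bp for Hap2 and 210 and 220 bp for Arp5. The difference was thus not particular to 5S genes. At 18 of the 24 5S genes with a peak in all 4 lists, both Hap2 peaks were wider than both Arp5 peaks, and the reverse occurred at 0. The median difference between the means of the 2 proteins was 100 bp, with a range from -20 to 395 bp. Most of it lay on the downstream side. The Hap2 peaks ended a median of 182 and 184 bp after the 5S start and the Arp5 peaks a median of 123.5 and 125.5 bp after it, close to the end of the 119-base gene. At 20 of the 24 genes both Hap2 peaks reached farther downstream than both Arp5 peaks, at 1 both reached less far, and the median difference was 77.5 bp. On the upstream side, Hap2 peaks began at medians of -91 and -98 bp and Arp5 peaks at -83 and -80.5 bp, and both Hap2 peaks began farther upstream at 8 of the 24 genes. All 119 bases of the near-complete copies lay under the peak in 34 of 34 cases in each Hap2 list, but in 16 of 26 and 20 of 32 cases in the Arp5 lists.

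Peaks that also covered a tRNA gene were wider. A tRNA gene lay within 1 kb of 10 5S genes, and 5 and 4 of the Hap2 peaks and 1 and 2 of the Arp5 peaks covered such a tRNA gene as well. The median width of these shared peaks was 680 and 580 bp for Hap2 and 590 and 550 bp for Arp5. Without them the medians were 290 and 280 bp for Hap2 and 200 and 200 bp for Arp5, so that the difference between the proteins was nearly as large. SPRRNA.06 shared its peak with a tRNA gene in all 4 lists, and SPRRNA.26 in both Hap2 lists and neither Arp5 list. In all 4 lists together, 8 of the 10 5S genes near a tRNA gene and 16 of the 26 others had a peak.

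Summits fell near the start of the 5S sequence in all lists. Measured from the first base of the 5S sequence in the near-complete copies, the median was 8.5 and 8.5 bp in the Hap2 lists and 0.5 and 4.5 bp in the Arp5 lists. The middle 50% of genes spanned 0.25 to 29.75 bp and -4 to 46.75 bp for Hap2 and -7 to 14.25 bp and -4.25 to 22.75 bp for Arp5, so the proteins overlapped widely. Over tRNA genes the median, from the annotated gene start, was 10 and 6 bp for Hap2 and -2 and -3 bp for Arp5. A summit near the start was thus not particular to 5S genes. Of the near-complete copies with a peak, 25 and 24 had the Hap2 summit within the 119 bases and 7 and 9 in the 100 bp before them. The Arp5 summit lay within the gene at 14 and 19 and in the 100 bp before it at 11 and 11. The farthest was that of SPRRNA.37 in Arp5-3HA replicate 2, at -589 bp, at the far end of a peak 740 bp wide.

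A Hap2 and an Arp5 list with the same replicate number placed the summit in the same 10-bp step far more often than any other pair of lists. At 5S genes this was so at 11 of 26 genes for replicates 1 and at 18 of 32 for replicates 2. Lists of different proteins and different numbers shared the summit at 4 of 32 and 0 of 26 genes. The lists of one protein shared it at 4 of 34 for Hap2 and 4 of 24 for Arp5. The same held for all overlapping peaks, with 32.1 and 29.9% for the same number against 2.72 to 3.72% for the other pairs. Ranks were also closest for the same number, with a Spearman's rho of 0.61 (26 genes) and 0.74 (32 genes), against 0.22 and 0.21 for different proteins and numbers. Between the lists of one protein it was 0.07 for Hap2 and 0.43 for Arp5. The input used for each list is not given in the sources used here, and what same-numbered lists share was not tested. Summit positions and ranks of Hap2 and Arp5 within a replicate number should therefore not be counted as independent measurements. Median summits near the 5S start were found in lists of both numbers.

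**Figure D4:**
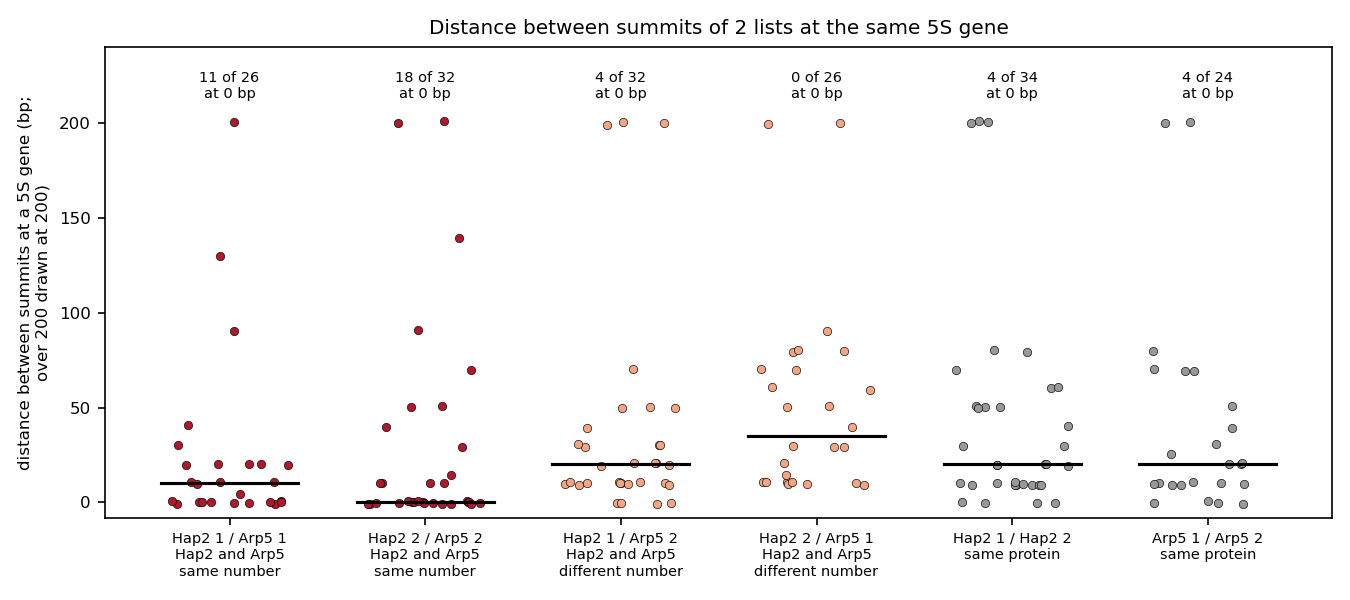
Points give, for each 5S gene with a peak in both lists of a pair, the distance in bp between the summits of the 2 lists (distances over 200 bp drawn at 200, points shifted slightly for visibility); bars are medians and the text gives how many genes are at 0 bp. Hap2 and Arp5 lists of the same number share the summit at 11 of 26 and 18 of 32 genes, all other pairs at 0 to 4.

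The rDNA repeats lie at both ends of chromosome III, and all 11 of their genes lay fully under peaks in all 4 lists. At the left end the units run on the - strand, toward the chromosome end, with 28S SPRRNA.47 and SPRRNA.48, 5.8S SPRRNA.50 and SPRRNA.51, and 18S SPRRNA.42, SPRRNA.43 and SPRRNA.44. At the right end they run on the + strand, with 18S SPRRNA.46 and SPRRNA.45, 5.8S SPRRNA.52 and 28S SPRRNA.49. The chromosome ends cut the 18S genes SPRRNA.42, of which 1390 bp are present, and SPRRNA.45, of which 1001 bp are present. The complete copies of each gene are identical in sequence (18S 1842 bp, 5.8S 165 bp, 28S 3485 bp), and 1 unit at the left end is 10870 bp long. A living cell has many more repeats than this reference, reads from all of them match these few copies, and the copies may not be independent. In each list 5 peaks accounted for all 11 genes, where 34.1 to 37.8% of all genes had any peak.

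The longest peak of each list was an rDNA peak, at 8800 and 8760 bp in the Hap2 lists and 7870 and 7120 bp in the Arp5 lists. Each of the 3 full-length peaks of a list ran without a break from before an 18S gene, across 5.8S, to beyond a 28S gene. By score, the 5 rDNA peaks ranked from 60 to 83 and from 60 to 96 in the Hap2 lists. In the Arp5 lists 4 of them ranked from 11 to 32 and from 15 to 20. The fifth, over the cut 18S gene SPRRNA.45 at the right end of the chromosome, ranked 63 and 96 for Hap2 and 130 and 103 for Arp5. The Arp5 ranks were thus better than the Hap2 ranks at 4 of the 5 peaks and poorer at the outermost right one, in terms of place in the own list only.

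The summit of these wide peaks lay in an 18S or a 28S gene every time. For Hap2, SPRRNA.48 had it 1245 and 1235 bp into the 28S gene, and for Arp5 also 1245 and 1235 bp. SPRRNA.47 had it at 1275 and 2005 bp for Hap2 and at 1275 and 1995 bp for Arp5. The replicate numbers again went together. At the right end the Hap2-GFP replicate 1 summit lay in 18S SPRRNA.46, at 452 bp, while the other 3 lists had it in 28S SPRRNA.49, at 1233 bp in Hap2-GFP replicate 2 and at 1273 and 1233 bp in Arp5-3HA. Over SPRRNA.45 the Hap2 summits lay 413 and 393 bp into the 18S gene and the Arp5 summits 903 and 983 bp into it, near the chromosome end. SPRRNA.42 likewise had Hap2 summits at 414 and 464 bp and Arp5 summits at 1374 and 1384 bp, next to the end at base 1390.

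Hap2 and Arp5 peaks parted before the 18S gene. Hap2 peaks over the gene extended 1530 to 1603 bp upstream of the annotated 18S start, with a median of 1546 bp over 5 genes and 2 lists. Arp5 peaks over the gene extended 60 to 843 bp, with a median of 106.5 bp. At SPRRNA.43 the Hap2 lists gave 1560 and 1530 bp and the Arp5 lists 150 and 60 bp. SPRRNA.42 gave 1540 and 1530 bp for Hap2 and 130 and 80 bp for Arp5, and SPRRNA.44 gave 1590 and 1550 bp for Hap2 and 150 and 70 bp for Arp5. The groups did not overlap at any of these genes, and the Arp5 peak over the gene ended just before the 18S start. Further Arp5 peaks lay upstream of SPRRNA.42 and SPRRNA.43, as given below.

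At the right end the replicates of Arp5 differed. SPRRNA.46 gave 1603 and 1553 bp for Hap2 and 843 and 83 bp for Arp5, and SPRRNA.45 gave 1542 and 1542 bp for Hap2 and 432 and 82 bp for Arp5. Arp5-3HA replicate 1 thus reached farther there than anywhere at the left end, and replicate 2 did not. The peak over the gene still extended farther in both Hap2 lists than in both Arp5 lists at all 5 genes, and the difference of the means was between 1115 and 1460 bp. Within the stretch covered by Hap2, the Arp5 lists held separate, low-ranked peaks 170 to 700 bp wide, at ranks from 2690 to 4074, upstream of SPRRNA.42, SPRRNA.43 and SPRRNA.45. In the same order, the breaks before the nearest of them were 80, 110 and 70 bp in Arp5-3HA replicate 1. In replicate 2 they were 490, 500 and 430 bp. Upstream of SPRRNA.42 and SPRRNA.43 the farthest of these peaks ended at chrIII:2830 and chrIII:13700 in both Arp5 lists.

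**Figure D5:**
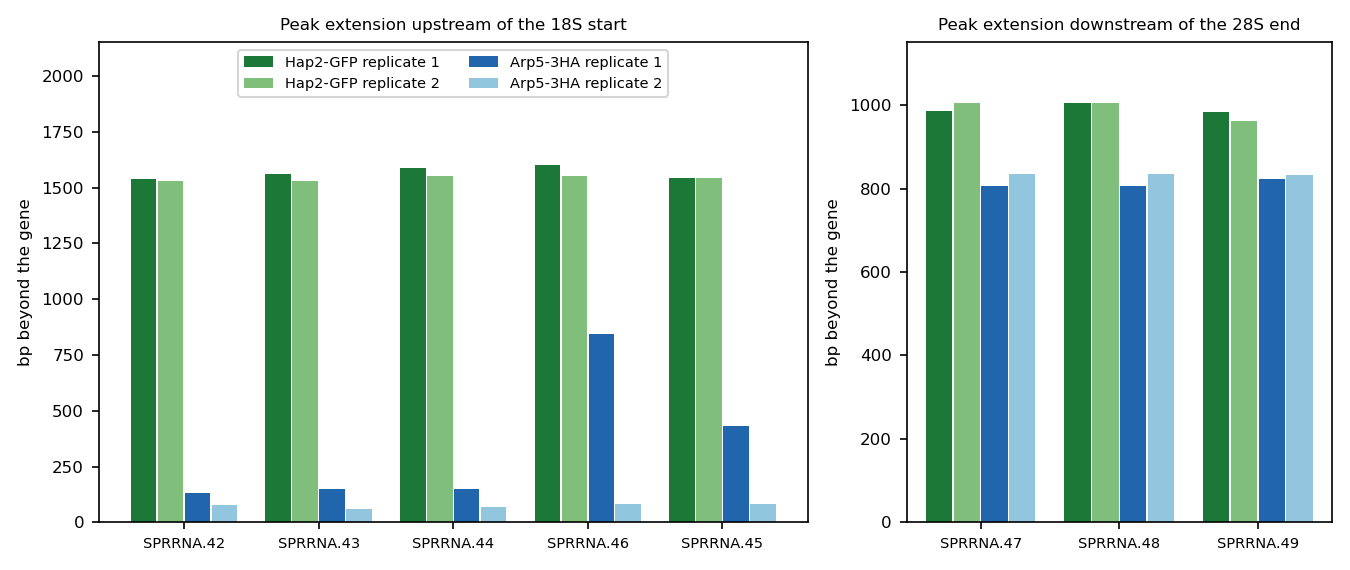
Bars give how far, in bp, the peak over the gene extends beyond it in each list: upstream of the annotated start of the 5 18S genes (left) and downstream of the end of the 3 28S genes (right). Both Hap2 bars stand above both Arp5 bars at every gene, by a mean of 1115 to 1460 bp upstream and 145 to 185 bp downstream.

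The sequences at these 2 edges are shown for SPRRNA.43, whose upstream region is complete within the repeats. The first spans the annotated 18S start (chrIII:12201-12320, - strand), with 60 bases before it in lower case and the first bases of the gene in capitals, and it is the same in all 5 copies. The edge of Arp5-3HA replicate 2, 60 bp before the 18S start, lies at its first base, and that of replicate 1, 150 bp before the start, lies outside it. The second spans the median upstream edge of Hap2, 1546 bp before the 18S start (chrIII:13747-13866, - strand), with the bases on the gene side of this median edge in capitals. The edges of the Hap2 lists at SPRRNA.43 itself, 1560 and 1530 bp before the 18S start, lie on either side of that point.
SPRRNA.43 18S start: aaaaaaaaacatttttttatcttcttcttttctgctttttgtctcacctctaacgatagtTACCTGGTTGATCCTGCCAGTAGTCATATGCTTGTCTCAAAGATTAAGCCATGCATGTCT
SPRRNA.43 Hap2 edge: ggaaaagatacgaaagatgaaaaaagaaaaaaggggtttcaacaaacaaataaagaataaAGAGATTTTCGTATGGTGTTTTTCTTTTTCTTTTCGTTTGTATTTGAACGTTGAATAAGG
The region before SPRRNA.42 is identical to that before SPRRNA.43 for all 2000 bp compared. Before SPRRNA.44, the innermost unit of the left end, the unbroken match ends 1440 bp upstream. The stretch around 1546 bp upstream holds other sequence there, and the Hap2 edges at 1590 and 1550 bp lie inside that other sequence. The copies at the right end first differ from SPRRNA.43 at 178 bp, which is the first mismatch only. Around the Hap2 edge SPRRNA.45 again holds the sequence of SPRRNA.43, at a slightly shifted position. The Hap2 edge had nearly the same distance from the 18S start in unit-to-unit spacers and at the border of the repeats, where the bases around it were different ones. The border stretches before SPRRNA.44 and SPRRNA.46 largely share one sequence at shifted positions, so they are not separate cases. What sets the place of the edge was not tested.

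Downstream of 28S the edges of the proteins were closer. Hap2 peaks ended 963 to 1006 bp after the 28S gene (median 996 bp) and Arp5 peaks 806 to 836 bp after it (median 828 bp). SPRRNA.47 gave 986 and 1006 bp for Hap2 and 806 and 836 bp for Arp5, SPRRNA.48 gave 1006 and 1006 bp for Hap2 and 806 and 836 bp for Arp5, and SPRRNA.49 gave 983 and 963 bp for Hap2 and 823 and 833 bp for Arp5. The values of the proteins did not overlap, and the differences of the means, 145 to 185 bp, exceeded the difference between replicates of either protein at each gene.

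In the part of the spacer nearer to this edge, peaks were found for Hap2 alone. In both Hap2 lists each of the 3 spacers held a small peak of 190 to 260 bp that began between 1217 and 1254 bp after the 28S end, at ranks from 2993 to 3734. Each also held a larger one of 710 to 730 bp that began between 1737 and 1784 bp after it, at ranks from 452 to 854. No Arp5 peak of either list lay in these stretches. The Arp5 lists were instead empty for 2390 to 2990 bp without a break after their 28S edge. These 2 spacer peaks recurred at nearly the same distances in each of the 3 spacers, and the units are copies of one another.

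Over both blocks of repeats, chrIII:1-23130 and chrIII:2440994-2452883, Hap2 peaks covered 90.1 and 89.6% of the sequence and Arp5 peaks 74.9 and 71.7%. All of the difference lay outside the gene bodies, where Hap2 peaks covered 78.6 and 77.5% and Arp5 peaks 45.5 and 38.7%, since the gene bodies were at 100% in all lists. These gaps were low in GC. All of them lie in spacer, so the values below compare spacer with genes, and the GC content of spacer under peaks is not given. Some Arp5 gaps lay under Hap2 peaks, such as chrIII:12411-12520 of Arp5-3HA replicate 1, at 18.2% GC. The stretches without a peak had a GC content between 18.2 and 29.5%, against 45.01, 43.03 and 47.09% in the 18S, 5.8S and 28S genes and 36.1% over chromosomes I to III, and the part of base composition in the peak edges was not tested.

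A pair of qPCR primers in the study amplifies rDNA. The amplicon of 108 bp lies from base 142 of the 28S genes SPRRNA.47, SPRRNA.48 and SPRRNA.49 (in SPRRNA.48 chrIII:20163-20270, - strand), and peaks of all 4 lists covered it fully in each. The sequence is given because this is the rDNA site the study assays, with the primer sites in capitals.
28S amplicon: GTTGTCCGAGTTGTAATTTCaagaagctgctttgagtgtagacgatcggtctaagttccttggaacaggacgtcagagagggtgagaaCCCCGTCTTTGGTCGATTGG
It lies before the summits of SPRRNA.48, at 1245 and 1235 bp into the gene, and within the gene body, where the proteins did not differ in cover.

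Genes that encode the machinery for rRNA transcription were counted by the same rule. All 32 listed genes, for subunits and factors of RNA polymerases I and III, were found in the annotation. Both Hap2 lists had a peak over the body of 14 (43.8%) and both Arp5 lists over 11 (34.4%), against 31.0 and 38.1% of all coding genes and 26.7 and 26.8% of all genes. In a promoter window, which began 500 bp before the gene start and ended 100 bp after it, they numbered 8 for Hap2 and 6 for Arp5 of 32, against 18.6 and 5.73% of all coding genes and 20.9 and 14% of all genes. The 5S genes numbered 34 and 24 in this window. By both rules, *rrn7*, for a core factor of RNA polymerase I, *rpc2* and *rpc37*, for subunits of RNA polymerase III, and *tbp1*, for the TATA-binding protein, had peaks of both proteins. *sfc2*, which encodes the TFIIIA that binds 5S genes, had a Hap2 peak over its body in both lists but no Arp5 peak in both, and *nuc1* and *rpc1*, for the largest subunits of RNA polymerases I and III, had peaks of both proteins over the body only. None of these differences from the background was tested.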

How the data were processed

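Peak lists of Hap2-GFP and Arp5-3HA (2 replicates each, grouped as labelled) were analysed, and the 2 inputs were not used. The authors made them with MACS2 2.1.2, BWA 0.7.17, Trimmomatic 0.36 and deepTools, as named without role or order in the submitters' processing notes. How these were run, at which threshold, on which build and with which input, and how reads with several matches were handled, is not given in the sources used here. A deposited list gives for every peak its ends, its summit and a score, on a 10-bp grid. The score has no stated scale, and the deposited fold, p-value and q-value fields hold 0 throughout. No read counts are given, so depth and its precision are unknown. The lists held 3758 and 4259 (Hap2) and 4206 and 4277 (Arp5) peaks on chromosomes I to III.

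Genes and sequences were taken from the RefSeq copy of ASM294v3, whose chromosome III ends at base 2452883, where the last peak of every list on it ends. Peaks on sequences outside that reference were left out. A peak was counted at a gene at an overlap of at least 1 bp. The 5S sequence was placed in each gene by alignment to SPRRNA.10. Summits were taken from the peak whose summit was nearest the gene centre. No test was made. Members, lists, rules and alternatives were chosen with earlier results of these data known. Named are all rDNA genes, 5S genes without a peak in some list, the 3 highest and 3 lowest 5S genes by score for each protein, and the rDNA primer site. The alignment and the spacer and edge comparisons were added after the data were seen, as was the naming of single genes of the transcription machinery. Alternatives were other overlap rules, the 1000 highest peaks, either replicate, isolated 5S genes and each replicate left out. Peak counting was tested on simulated data. Python 3.11.15, numpy 2.4.6, pandas 2.3.3 and matplotlib 3.10.9 were used.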

Additional observations from a re-analysis of the deposited data

How the results depend on the processing

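Of 74 alternatives to 14 results, 55 kept the value within 1.5 times (counts) or within the SD of the 2 replicates (medians and cover). For medians and cover, leaving out 1 replicate kept the value by construction, since each of 2 values lies within their SD of their mean. The same holds for the 5S and rDNA counts with either replicate or with 1 replicate left out. Such a count lies between the count in both lists and the group size, which was at most 1.5 times that count. All these alternatives are among the 55 and say nothing about stability. Among the 1000 highest peaks of each list, both Arp5 lists had a peak at 15 5S genes, against 24 with all peaks. A summit within 150 bp of the gene centre was found at 1 rDNA gene for Hap2 and 0 for Arp5, since one peak spans several rDNA genes and has a single summit. The median summit offset of Hap2 from the annotated 5S start was 34.75 bp, and it was 40.5 bp with genes in all 4 lists, 37.25 bp with isolated genes and 8.5 bp from the start of the 5S sequence. That of Arp5 was 34.5 bp, and 2.5 bp from the 5S sequence, a reference point chosen after seeing the data. The median Hap2 peak width was 295 bp, and 315 bp with genes in all 4 lists and 280 bp with isolated genes. The Arp5 width was 200 bp, and 205, 195 and 197.5 bp with genes in all 4 lists, the 1000 highest peaks and isolated genes. The median Hap2 percentile was 91.8, and 91.0 with isolated genes. The cover of the rDNA blocks was 89.9% for Hap2 and 73.3% for Arp5. With the 1000 highest peaks it was 87.8% for Hap2 and 68.4% for Arp5, and over gene bodies alone it was 100% for both. The genes of the transcription machinery fell to 8 (Hap2) and 6 (Arp5) in the promoter window, against 14 and 11 over the body, a comparison added after seeing the data. Without 1 replicate, 34 to 36 (Hap2) and 26 to 32 (Arp5) 5S genes had a peak. No paired analysis was possible because the results come from no test; within replicate number 1, 34 (Hap2) and 26 (Arp5) 5S genes had a peak, and within number 2, 36 (Hap2) and 32 (Arp5). With 2 lists a protein and unknown depth, a missing peak cannot be told apart from one below the threshold of that list.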
